A study of Mus musculus with 36 samples.

Results

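Embryoid bodies are aggregates of embryonic stem (ES) cells that differentiate in suspension, and the day 4 aggregates of wild-type (WT) E14 cells are described here against the same line at day 0. The comparison took 4 of the 36 samples of the series: WT embryoid bodies at day 4 (2 libraries) and WT ES cells at day 0 (2 libraries). E14 is an ES cell line derived from mouse blastocysts. The genes tested were the 15227 of 19834 that reached a value of 10 in 2 or more of the 8 libraries. The 4 remaining libraries of the experiment carry the label KO for Rreb1 (day 4 and day 0, 2 libraries each). They entered the fit as the groups that share its estimate of the spread, and they are compared with WT only at the end. All 8 libraries carry the treatment label EB, the day 0 ones included, and no added factor is named for any of them. The sources used here do not give the medium or the size of the aggregates, nor whether leukaemia inhibitory factor (LIF) was removed. They do not say either whether the replicates of a day came from separate cultures, so the p-values below measure the spread between these libraries, which may be technical.

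Each value is a normalized read count, one per gene and library, and a log2 fold change (log2 FC) is the difference of log2(value + 1), day 4 minus day 0, given with its standard error (SE). A gene counts as changed at an adjusted p under 0.05 in limma with Benjamini-Hochberg adjustment. The WT libraries held 23853544 and 24706064 reads at day 4, against 24270277 and 19885697 at day 0. Replicates of a day differed by a median absolute log2 of 0.097 at day 4 and 0.080 at day 0, over the 12379 genes with a WT mean of at least 50. These are whole aggregates, so for every gene below, a change in the number of cells that express it cannot be told apart from a change in the RNA per cell.

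Embryoid bodies repeat, without the spatial order of the embryo, the steps that follow implantation. Naive pluripotent cells first lose the factors that LIF sustains and pass through a formative state that resembles the epiblast. Nodal, WNT and BMP signals then draw part of the cells through a primitive streak state, marked by T and Eomes, into mesoderm and endoderm, while cells at the surface become visceral endoderm.

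Marker genes of these states were checked against the labels. All 6 ES cell markers fell (Pou5f1, Sox2, Nanog, Zfp42, Esrrb and Utf1), though none was lost: at day 4 Pou5f1, the central pluripotency factor, still read 10361 and 10924. All 4 mesendoderm markers (T, Eomes, Mixl1, Mesp1), all 3 of definitive endoderm (Sox17, Foxa2, Cxcr4), all 7 of extraembryonic endoderm (Gata6, Gata4, Sox7, Dab2, Afp, Ttr, Apoa1) and all 4 of mesoderm (Kdr, Pdgfra, Hand1, Tbx6) rose. The neuroectoderm markers split, with Nes up, Pax6 down and Sox1 not passing the test. Among the trophoblast markers Cdx2 and Krt7 rose, while the defining ones stayed under the minimum value: Elf5 read 9.61 and 8.39 at day 4, against 1.98 and 1.21 at day 0, and Prl3d1 0.961 and 0 at day 4, against 0 and 0 at day 0. Of the 7 feeder fibroblast markers 6 were tested, of which 5 rose and 1 (Thy1) did not pass. The tested ones summed to 1892 and 2107 at day 4, against 391.9 and 445.7 at day 0. Lum was not tested and read 2.88 and 0 at day 4, against 0 and 0 at day 0.

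Most of the genes that reached the minimum value differed between day 4 and day 0. Of the 15227 genes tested, 9602 (63.1%) passed the test, 4912 of them higher at day 4 (32.3%) and 4690 lower (30.8%). A total of 2075 genes (13.6%) rose by a log2 of at least 1, and 1368 (8.98%) fell by at least as much. Quantile normalization turned that order round, with 1785 higher and 1861 lower at the same fold. At a log2 of at least 3 the counts were 424 higher and 76 lower, and at a log2 of at least 5 they were 89 higher and 1 lower. Changes of called genes had a median absolute log2 of 0.70. The median log2 fold change over all genes was 0.00, and the WT groups did not overlap for 12739 genes (83.7%). Among the 9602 genes called, 9601 did not overlap, so a lack of overlap adds little to a call. A total of 40 genes had no read in either day 0 library and a value of at least 10 in both day 4 libraries, while 3 genes did the reverse.

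**Figure D1:**
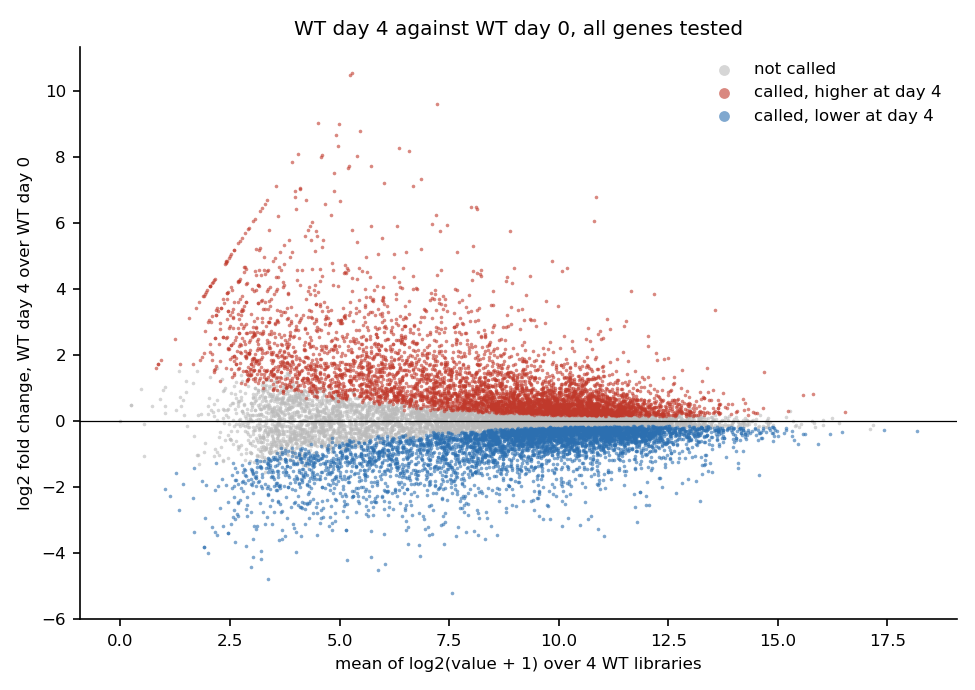
Each point is 1 of the 15227 genes: the x axis is the mean of log2(value + 1) over the 4 WT libraries and the y axis the log2 fold change of WT day 4 over WT day 0, with called genes coloured by direction. Points above 5 number 89 among called genes and points below −5 number 1 (Inhbb).

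The largest gains included products of visceral endoderm and transcription factors of mesoderm and the streak. Afp, the fetal serum protein alpha-fetoprotein, read 1757 and 1277 at day 4 and had no read at day 0 (at least 927-fold higher, adjusted p = 2.57e-10). Ttr, the thyroid hormone carrier transthyretin, read 621 and 435 at day 4, against 0 and 0 at day 0 (at least 323-fold higher, adjusted p = 5.89e-09). Apoa4, an apolipoprotein, read 358 and 206 at day 4, against 0 and 0 at day 0 (at least 173-fold higher, adjusted p = 2.48e-08). All of these are products of visceral endoderm and liver, and in each the day 4 libraries stood clear of an empty day 0.

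Receptor, transcription factor and cadherin genes rose over the same range, among them Prdm6, Pcdh7 and Unc5c, which are in none of the 40 lists. Aplnr, the apelin receptor of early mesoderm, had 1059 and 1907 at day 4, against 0 and 0 at day 0 (at least 906-fold higher, adjusted p = 6.23e-10). Hand1, a transcription factor of lateral and extraembryonic mesoderm, had 3334 and 5264 at day 4, against 3.97 and 4.84 at day 0 (log2 FC 9.60 ± 0.44 SE, adjusted p = 2.5e-10). The second day 4 library was the higher of the pair for both. Prdm6, a regulator of smooth muscle, read 572 and 905 at day 4, against 0.992 and 0 at day 0 (a ratio of 1359, 95% counting interval 244 to 53708, adjusted p = 1.33e-08). Pcdh7, a protocadherin, read 811 and 1069.6 at day 4, against 0.992 and 1.21 at day 0 (a ratio of 864, 95% counting interval 239 to 7138, adjusted p = 1.56e-11). Cdh11, a cadherin of mesenchymal cells, read 1265 and 2144 at day 4, against 5.95 and 3.63 at day 0 (log2 FC 8.18 ± 0.29 SE, adjusted p = 1.89e-11). Unc5c, a netrin receptor, read 1049 and 2005 at day 4, against 8.93 and 1.21 at day 0 (log2 FC 8.27 ± 0.62 SE, adjusted p = 4.57e-08). Lhx1 and Evx1, homeobox factors of the streak, and Cdx2, a caudal-type homeobox factor of the posterior embryo and of trophoblast, complete the 12 largest gains among genes with a WT mean of at least 50. Lhx1 read 432 and 850.5 at day 4, against 0 and 1.21 at day 0, and Evx1 404 and 769 at day 4, against 1.98 and 0 at day 0, and for both the day 0 libraries held a single low value beside a zero. Cer1, a secreted nodal, BMP and WNT antagonist of the anterior visceral endoderm, was the fifth of the genes with no day 0 read (173 and 305 at day 4; at least 146-fold higher, adjusted p = 4.06e-08).

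The largest losses were smaller and ran over a more mixed group. Inhbb, the activin beta B subunit, fell most: it read 25.9 and 34.5 at day 4, against 1169 and 1123 at day 0 (log2 FC −5.21 ± 0.14 SE, adjusted p = 2.19e-12). Slc11a1, a metal ion transporter, read 11.5 and 11.2 at day 4, against 279 and 283 at day 0 (log2 FC −4.51 ± 0.19 SE, adjusted p = 1.06e-10). Slc6a7, the proline transporter, read 9.61 and 19.6 at day 4, against 318 and 270.1 at day 0 (log2 FC −4.32 ± 0.28 SE, adjusted p = 7.8e-09). The day 4 libraries of both kept a low but countable signal. The 12 held a pair of class I myosin genes: Myo1f read 21.1 and 33.6 at day 4, against 445 and 501 at day 0 (log2 FC −4.10 ± 0.22 SE, adjusted p = 1.61e-09). Myo1g read 24.0 and 26.1 at day 4, against 372 and 321 at day 0 (log2 FC −3.73 ± 0.21 SE, adjusted p = 1.86e-09). Cobl, an actin nucleator, read 556 and 706 at day 4, against 7309.6 and 6796 at day 0 (log2 FC −3.49 ± 0.09 SE, adjusted p = 1.74e-12). Mia (−4.21), A930011O12Rik (−4.11), Gpr133 (−3.75), Mras (−3.73), Gm7325 (−3.57) and Prmt8 (−3.49) make up the rest, given as log2 fold changes. The 3 genes read at day 0 and absent at day 4 were all low ones, with Ly6g5c the highest: it had no read at day 4, against 20.8 and 10.9 at day 0 (at least 11.2-fold lower, adjusted p = 9e-06). The others were Gm2848, with 15.9 and 10.9 at day 0, and Gm525, with 10.9 and 15.7.

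Genes of naive pluripotency fell across nearly the whole list. Of 24 factors and markers of the naive state, 22 fell, 1 rose and 1 did not pass, with a median log2 fold change of −1.74. Klf4, a factor held up by LIF, read 608 and 627 at day 4, against 6019 and 5832 at day 0 (log2 FC −3.26 ± 0.09 SE, adjusted p = 1.88e-12). Tcl1, an AKT cofactor of ES cells, read 370 and 345 at day 4, against 3187 and 3236 at day 0 (log2 FC −3.16 ± 0.07 SE, adjusted p = 1.44e-12). The replicates of each lay close together, and the days were far apart. Esrrb, the orphan nuclear receptor of the naive network, read 4187 and 4032 at day 4, against 22530 and 21816 at day 0 (log2 FC −2.43 ± 0.07 SE, adjusted p = 2.03e-12). Zfp42 (Rex1), its classic marker, read 3113 and 3095 at day 4, against 13901 and 14102 at day 0 (log2 FC −2.17 ± 0.06 SE, adjusted p = 2.78e-12). Spp1, the secreted protein osteopontin, fell as well (log2 FC −2.28 ± 0.07 SE, adjusted p = 6.65e-12). Nanog fell less, reading 6266 and 6643 at day 4, against 15941 and 16458 at day 0 (log2 FC −1.33 ± 0.07 SE, adjusted p = 5.73e-10). Dppa3 (Stella), known in the naive state and in germ cells, was the member that rose (382 and 397 at day 4, against 256 and 246 at day 0; log2 FC 0.63 ± 0.17 SE, adjusted p = 0.00588). Without the second day 0 library the gain was 0.60 and not called (adjusted p = 0.0517). Tbx3, which also acts in mesoderm and endoderm, read 1501 and 2245 at day 4, against 2191 and 2164 at day 0, a spread between the day 4 libraries wider than the difference between days (log2 FC −0.25 ± 0.14 SE, adjusted p = 0.131).

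LIF pathway genes went the same way for the most part. Of 10 genes, 6 fell, 1 rose and 3 did not pass, with a median of −0.66. Socs3, the feedback inhibitor that STAT3 induces, read 472 and 383 at day 4, against 3245 and 3337 at day 0 (log2 FC −2.95 ± 0.12 SE, adjusted p = 6.14e-11). The serine/threonine kinases Pim1 and Pim3, also STAT3 targets, fell by a log2 of 1.12 and 1.22, and the receptor Lifr by 0.80. Stat3 itself read 1239 and 1287 at day 4, against 2584 and 2269 at day 0 (log2 FC −0.94 ± 0.12 SE, adjusted p = 7.67e-06). Jak1, the kinase under the receptor, gave 2127 and 2126 at day 4, against 1981 and 1881 at day 0, and did not pass (log2 FC 0.14 ± 0.08 SE, adjusted p = 0.124). Lif, the ligand (log2 FC 0.14 ± 0.14 SE, adjusted p = 0.41), did not pass either.

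The core factors fell less and not all of them fell. Among 17, 12 fell, 3 rose and 2 did not pass (median −0.81). Pou5f1 read 10361 and 10924 at day 4, against 27993 and 28711 at day 0 (log2 FC −1.41 ± 0.08 SE, adjusted p = 1.4e-09). Sox2, its partner, which neural progenitors also keep, read 7576 and 6311 at day 4, against 15432 and 15865 at day 0 (log2 FC −1.18 ± 0.10 SE, adjusted p = 9.44e-08). Dppa5a, an RNA-binding protein of pluripotent cells, fell (log2 FC −1.63 ± 0.08 SE, adjusted p = 6.72e-10), and so did the growth factor Gdf3 (log2 FC −1.88 ± 0.10 SE, adjusted p = 1.43e-09) and L1td1 (log2 FC −1.29 ± 0.08 SE, adjusted p = 7.98e-09). Lin28a, which blocks let-7 maturation, went up and read 13858 and 13413 at day 4, against 10202 and 10344 at day 0 (log2 FC 0.41 ± 0.06 SE, adjusted p = 5.97e-05). Rif1 did not pass (log2 fold change −0.14).

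Formative and primed genes rose: 17 of 19 were higher, 1 lower and 1 did not pass, with a median of 1.53. Fgf5, the growth factor that marks the postimplantation epiblast, read 2838 and 2379 at day 4, against 21.8 and 36.3 at day 0 (log2 FC 6.48 ± 0.21 SE, adjusted p = 1.15e-11). Otx2, which drives the naive to formative transition, was already present at day 0 and read 6241 and 5333 at day 4, against 1601 and 1687 at day 0 (log2 FC 1.81 ± 0.08 SE, adjusted p = 1.13e-10). Sall2 read 3306 and 2632 at day 4, against 224 and 249.5 at day 0 (log2 FC 3.63 ± 0.11 SE, adjusted p = 5.68e-12). Sox11 read 3877 and 3609.9 at day 4, against 639 and 698 at day 0 (log2 FC 2.48 ± 0.08 SE, adjusted p = 7.63e-12). For none of these genes did the days overlap, which held for nearly all called genes. Etv4, an ETS factor that ERK signalling induces, was the exception and fell (355 and 497 at day 4, against 1328 and 1502 at day 0; log2 FC −1.75 ± 0.14 SE, adjusted p = 6.66e-08).

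**Figure D2:**
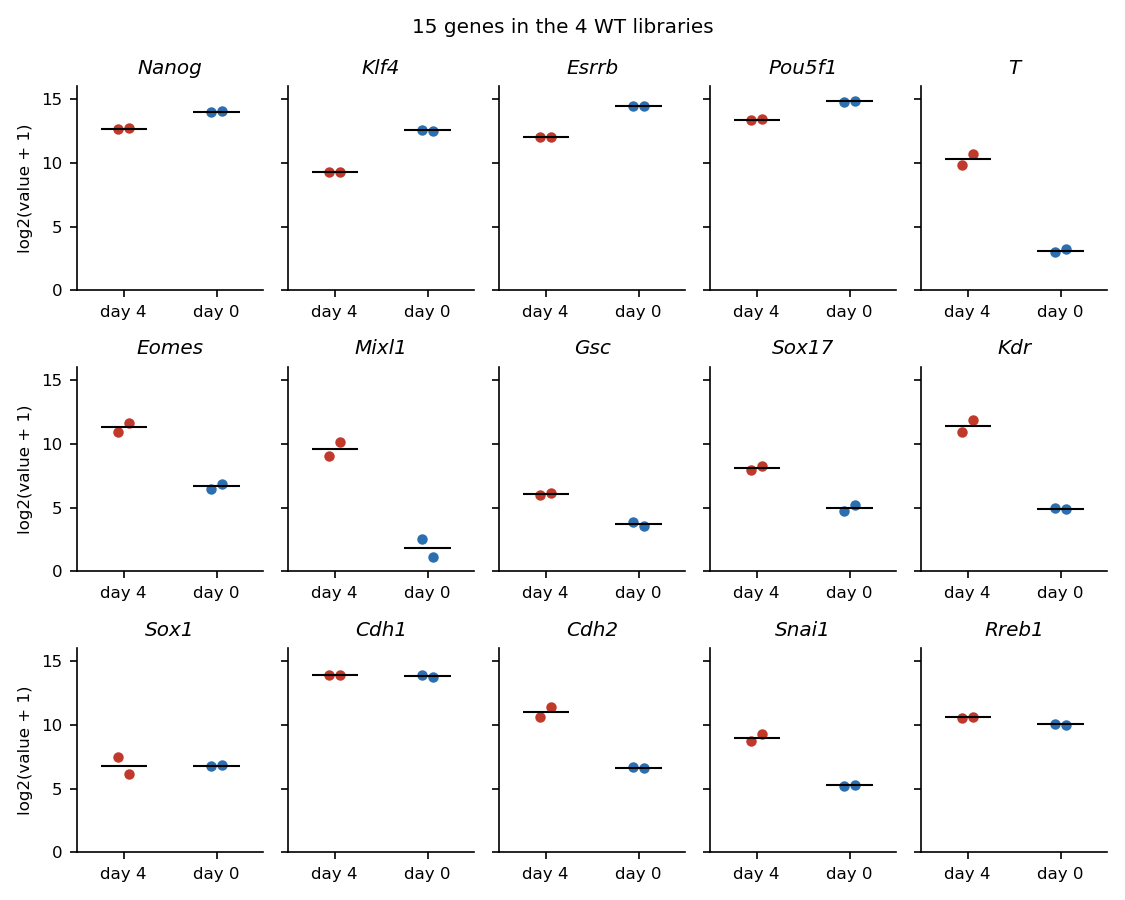
Values of 15 genes in the 4 WT libraries, WT day 4 left of WT day 0 in each panel, as log2(value + 1), with 1 point per library and a bar at the mean. For Sox1 and Cdh1 the days differ by less than the test's threshold; the other 13 genes changed.

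The primitive streak list showed the largest median change of the 40 lists, 4.64 on the log2 scale over 21 genes, of which 20 rose and 1 fell. T (brachyury), the T-box factor of the streak and of nascent mesoderm, read 907 and 1646 at day 4, against 6.95 and 8.48 at day 0 (log2 FC 7.14 ± 0.29 SE, adjusted p = 8.03e-11). Eomes, the T-box factor that specifies endoderm and cardiac mesoderm downstream of nodal, read 1945 and 3225 at day 4, against 87.3 and 114 at day 0 (log2 FC 4.64 ± 0.18 SE, adjusted p = 6.53e-11). Mixl1, a homeobox factor of mesendoderm, read 515 and 1135 at day 4, against 4.96 and 1.21 at day 0 (log2 FC 7.72 ± 0.44 SE, adjusted p = 2.66e-09). All 3 were higher in the second day 4 library than in the first, and in none did a day 4 value come near a day 0 value. Gsc, the homeobox factor of the anterior streak and organizer, rose less: it read 61.5 and 68.1 at day 4, against 13.9 and 10.9 at day 0 (log2 FC 2.30 ± 0.52 SE, adjusted p = 0.0014). Wnt3, the ligand that starts the streak in the mouse, read 338 and 552 at day 4, against 15.9 and 17.0 at day 0 (log2 FC 4.64 ± 0.26 SE, adjusted p = 1.86e-09). Cyp26a1, which breaks down retinoic acid, read 1102 and 1507 at day 4, against 18.9 and 13.3 at day 0 (log2 FC 6.26 ± 0.24 SE, adjusted p = 4.3e-11). Fst, the activin antagonist follistatin, read 657 and 905 at day 4, against 33.7 and 29.1 at day 0 (log2 FC 4.58 ± 0.21 SE, adjusted p = 3.42e-10). Nodal was the member that fell, and it was well expressed on both days (1204 and 1354 at day 4, against 2309.9 and 2257 at day 0; log2 FC −0.84 ± 0.08 SE, adjusted p = 6.46e-07).

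The promoters of 3 streak genes that rose are shown because T and Sp5 are known targets of WNT signalling through TCF/LEF factors, and Mesp1 is a known target of T and Eomes. The windows run from 250 bases before to 50 bases after the gene start and are from RefSeq. The capitals mark the TCF/LEF core CTTTGA and its reverse complement TCAAAG, searched on both strands. Sp5 and Mesp1 were chosen after their values were seen.
T, GRCm38.p6 chr17:8434173-8434472, + strand: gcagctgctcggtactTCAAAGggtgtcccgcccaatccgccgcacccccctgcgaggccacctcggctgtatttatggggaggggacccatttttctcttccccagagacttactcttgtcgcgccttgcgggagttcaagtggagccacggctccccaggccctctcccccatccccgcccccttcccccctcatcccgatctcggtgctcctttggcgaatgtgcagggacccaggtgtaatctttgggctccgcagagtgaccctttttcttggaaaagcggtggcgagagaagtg
Mesp1, GRCm38.p6 chr7:79793541-79793840, − strand: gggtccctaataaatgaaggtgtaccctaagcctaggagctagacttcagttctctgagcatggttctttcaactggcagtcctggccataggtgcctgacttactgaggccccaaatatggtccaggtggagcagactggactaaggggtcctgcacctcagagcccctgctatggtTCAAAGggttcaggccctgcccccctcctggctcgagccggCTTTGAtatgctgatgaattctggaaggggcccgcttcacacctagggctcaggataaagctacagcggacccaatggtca
Sp5, GRCm38.p6 chr2:70474673-70474972, + strand: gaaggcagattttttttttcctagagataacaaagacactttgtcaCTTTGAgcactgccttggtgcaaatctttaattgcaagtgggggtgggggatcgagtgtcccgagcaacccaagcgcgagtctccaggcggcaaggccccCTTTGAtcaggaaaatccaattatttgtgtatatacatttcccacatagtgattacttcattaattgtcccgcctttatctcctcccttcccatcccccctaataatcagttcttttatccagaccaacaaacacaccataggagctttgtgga
The core was found at 1 place in the T window and at 2 places in each of the others. Windows were matched for 18 of the 21 streak genes, and 5 of their 20 windows held it (25%), against 12% of the 14303 windows of genes tested and 16% of all 32851 windows. The share was 12.4% of the 1863 windows of genes called higher 2-fold or more. It was 15.2% of the 1214 windows of genes called lower 2-fold or more. A match of these 6 letters is a description of the sequence only. Mesp1, the factor of cardiac and cranial mesoderm precursors, read 248 and 427 at day 4, against 1.98 and 2.42 at day 0 (log2 FC 6.67 ± 0.56 SE, adjusted p = 1.28e-07). Sp5, a zinc finger factor, read 246 and 314 at day 4, against 57.5 and 58.1 at day 0 (log2 FC 2.25 ± 0.46 SE, adjusted p = 0.000682).

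Definitive endoderm and node genes rose in 13 of 18 cases, fell in 2 and did not pass in 3 (median 2.50). Sox17, the HMG box factor of endoderm, read 241 and 300.3 at day 4, against 25.8 and 35.1 at day 0 (log2 FC 3.12 ± 0.39 SE, adjusted p = 7.46e-06). Foxa2, the forkhead factor of endoderm and node, read 197 and 236 at day 4, against 5.95 and 9.69 at day 0 (log2 FC 4.65 ± 0.34 SE, adjusted p = 3.03e-08). Cxcr4, the chemokine receptor used to sort definitive endoderm but also made by mesoderm, read 614 and 1016 at day 4, against 54.6 and 43.6 at day 0 (log2 FC 3.99 ± 0.24 SE, adjusted p = 4.89e-09). The days did not overlap for any of the 3, which held for nearly all called genes. Spink3, a secreted protease inhibitor, was higher as well (log2 FC 3.70 ± 0.21 SE, adjusted p = 1.86e-09). Prdm1, a repressor known in endoderm and germ cells, went down (log2 FC −0.69 ± 0.08 SE, adjusted p = 5.5e-06). Hhex, of the anterior endoderm (log2 FC 0.22 ± 0.17 SE, adjusted p = 0.281), Chrd, the BMP antagonist chordin (log2 FC 0.28 ± 0.20 SE, adjusted p = 0.23), and Foxa3 (log2 FC 0.46 ± 0.21 SE, adjusted p = 0.0687) did not pass. Shh and Noto stayed under the minimum value.

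Genes of primitive, visceral and parietal endoderm rose more uniformly: 32 of 36 were higher, none fell and 4 did not pass, with a median of 2.86. Cubn, the endocytic receptor cubilin of the visceral endoderm surface, read 5651 and 4862 at day 4, against 223 and 224 at day 0 (log2 FC 4.54 ± 0.15 SE, adjusted p = 1.41e-11). Dab2, the adaptor of the same uptake route, read 3689.5 and 3084 at day 4, against 289 and 315 at day 0 (log2 FC 3.48 ± 0.11 SE, adjusted p = 7.63e-12). Apob, the protein of lipoprotein export, read 2751 and 2124 at day 4, against 27.8 and 24.2 at day 0 (log2 FC 6.49 ± 0.21 SE, adjusted p = 1.15e-11). For all 3 the first day 4 library was the higher one, the reverse of the streak genes. Gata4 and Gata6 are transcription factors that endoderm shares with cardiac mesoderm. Gata4 read 1197 and 1681 at day 4, against 84.3 and 96.9 at day 0 (log2 FC 3.96 ± 0.16 SE, adjusted p = 8.03e-11). Gata6 read 429.6 and 617 at day 4, against 31.8 and 47.2 at day 0 (log2 FC 3.70 ± 0.26 SE, adjusted p = 1.95e-08). Sox7, of parietal and primitive endoderm, read 179 and 246 at day 4, against 22.8 and 25.4 at day 0 (log2 FC 3.07 ± 0.22 SE, adjusted p = 3.01e-08). Basement membrane collagens rose with them: Col4a1 read 10427 and 10218 at day 4, against 1763 and 1701 at day 0 (log2 FC 2.57 ± 0.09 SE, adjusted p = 1.41e-11). Col4a2 read 5076 and 4883 at day 4, against 882 and 852 at day 0 (log2 FC 2.52 ± 0.09 SE, adjusted p = 3.43e-11). Laminin gamma 1, Lamc1 (log2 FC −0.12 ± 0.08 SE, adjusted p = 0.218), apolipoprotein Apoe (log2 FC 0.12 ± 0.10 SE, adjusted p = 0.305) and transferrin, Trf (log2 FC 0.09 ± 0.14 SE, adjusted p = 0.617), had similar values on both days and did not pass. Afp and Apoa1 are also products of definitive endoderm derivatives, and the files do not separate the sources.

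Lateral plate and cardiac mesoderm genes rose in 24 of 27 cases, with 1 lower and 2 that did not pass (median 3.70). Kdr (Flk1), the VEGF receptor that marks haemangioblast and cardiac precursors, read 1898 and 3619 at day 4, against 30.8 and 27.9 at day 0 (log2 FC 6.44 ± 0.25 SE, adjusted p = 5.74e-11). Msx2, a homeobox target of BMP, read 877 and 1495 at day 4, against 19.8 and 20.6 at day 0 (log2 FC 5.76 ± 0.25 SE, adjusted p = 1.67e-10). Foxf1, the forkhead factor of splanchnic and extraembryonic mesoderm, read 506 and 905 at day 4, against 0.992 and 2.42 at day 0 (a ratio of 433, 95% counting interval 148 to 2104, adjusted p = 4.47e-10). In each, the second day 4 library was well above the first. Pdgfra, the receptor of paraxial and cardiac mesoderm, read 1100.4 and 1942 at day 4, against 71.4 and 49.7 at day 0 (log2 FC 4.59 ± 0.26 SE, adjusted p = 1.92e-09). The contractile genes Myl4 and Tnnt2 did not pass. The myosin light chain Myl4 read 74.0 and 56.0 at day 4, against 92.3 and 107 at day 0 (log2 FC −0.62 ± 0.26 SE, adjusted p = 0.0546). The troponin Tnnt2 read 8.65 and 8.39 at day 4, against 16.9 and 14.5 at day 0 (log2 FC −0.81 ± 0.44 SE, adjusted p = 0.127). Smarcd3, a chromatin remodelling subunit of heart muscle, went down (log2 FC −1.53 ± 0.17 SE, adjusted p = 3.11e-06).

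In the paraxial list 10 of 15 genes tested were higher, 3 lower and 2 did not pass (median 1.57). Rspo3, a WNT agonist of posterior mesoderm, read 379.6 and 726 at day 4, against 1.98 and 1.21 at day 0 (a ratio of 339.6, 95% counting interval 116 to 1649, adjusted p = 9.42e-10). Msgn1, the presomitic factor mesogenin, read 39.4 and 77.4 at day 4, against 0 and 1.21 at day 0 (a ratio of 108, 95% counting interval 18.96 to 4284, adjusted p = 6.78e-06). Tbx6, its partner in presomitic mesoderm, read 92.3 and 111 at day 4, against 28.8 and 43.6 at day 0 (log2 FC 1.49 ± 0.27 SE, adjusted p = 0.000254). Fgf17 fell, though it stands in this list, and read 84.6 and 84.9 at day 4, against 932 and 959 at day 0 (log2 FC −3.46 ± 0.15 SE, adjusted p = 1.43e-10). Tcf15 and Dll1 fell as well, by a log2 of 1.19 and 0.87; both are genes of somites and presomitic mesoderm that ES cells also express. The somite genes Meox1, Meox2, Ripply2 and Uncx stayed under the minimum value.

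The haemangioblast and endothelial list held changes in both directions. Of 26 genes tested 14 rose, 5 fell and 7 did not pass (median 1.23). Tal1, the bHLH factor that starts blood formation, read 262 and 468 at day 4, against 21.8 and 14.5 at day 0 (log2 FC 4.22 ± 0.35 SE, adjusted p = 1.27e-07). Runx1, needed for definitive blood, read 237 and 326 at day 4, against 34.7 and 40.0 at day 0 (log2 FC 2.87 ± 0.22 SE, adjusted p = 5.43e-08). Flt1, another VEGF receptor, read 662 and 819.7 at day 4, against 55.6 and 63.0 at day 0 (log2 FC 3.62 ± 0.18 SE, adjusted p = 7.99e-10). Pecam1, an endothelial adhesion molecule that naive ES cells carry, fell and read 1006 and 1116 at day 4, against 2863 and 2839 at day 0 (log2 FC −1.43 ± 0.07 SE, adjusted p = 5.08e-10). The endothelial receptor genes Tie1 (log2 FC −2.002 ± 0.35 SE, adjusted p = 0.000181) and Tek (log2 FC −1.21 ± 0.10 SE, adjusted p = 9.6e-08) fell too. So did Kit (log2 FC −0.65 ± 0.12 SE, adjusted p = 0.000379). Itga2b (CD41), a marker of the first blood precursors, read 88.4 and 80.2 at day 4, against 115 and 109 at day 0, and did not pass (log2 FC −0.41 ± 0.20 SE, adjusted p = 0.0914).

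Neuroectoderm genes gave no common direction: 14 of 29 tested rose, 9 fell and 6 did not pass, with a median of 0.38. That median was 0.01 without the first day 4 library, 0.64 without the second and 0.08 without the first day 0 library. Over the 14 members with a mean of at least 50 it was −1.03, with 4 higher and 8 lower. Sox1, the earliest specific marker of the neural plate, read 172 and 69.0 at day 4, against 107 and 113 at day 0 (log2 FC −0.01 ± 0.31 SE, adjusted p = 0.979). Its day 4 libraries lay on either side of the day 0 pair, and leaving out either of them gave a call in the opposite direction: a log2 of 0.64 from the first library alone and −0.66 from the second alone. Pax6, of the neural tube and eye, read 105 and 53.2 at day 4, against 377 and 420.3 at day 0 (log2 FC −2.40 ± 0.22 SE, adjusted p = 3.42e-07). Tubb3, the neuronal tubulin, read 404 and 465 at day 4, against 1995 and 1996 at day 0 (log2 FC −2.20 ± 0.08 SE, adjusted p = 2.47e-11). Forebrain and midbrain factors were among those that rose, all with more in the first day 4 library. En1 read 227 and 98.8 at day 4, against 5.95 and 1.21 at day 0 (log2 FC 5.27 ± 0.49 SE, adjusted p = 3.86e-07). Six3 read 71.1 and 28.9 at day 4, against 0.992 and 1.21 at day 0 (a ratio of 45.6, 95% counting interval 12.3 to 381, adjusted p = 5.85e-06). Irx3 read 105 and 61.5 at day 4, against 2.98 and 7.27 at day 0 (log2 FC 3.83 ± 0.38 SE, adjusted p = 8.31e-07). The proneural genes Neurog1 and Neurog2 and the neuronal gene Dcx had no WT value of 10.

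In the list of surface ectoderm and neural crest 9 of 13 genes tested rose, 2 fell and 2 did not pass (median 2.64). The members with the smallest adjusted p are not specific to ectoderm: the simple keratins Krt8 (4878 and 5291 at day 4, against 707 and 831 at day 0; log2 FC 2.73 ± 0.09 SE, adjusted p = 1.15e-11) and Krt18 (log2 FC 2.79 ± 0.09 SE, adjusted p = 1.35e-11) are made by endoderm and trophoblast as well. Foxd3, of neural crest and of ES cells, fell (log2 FC −0.70 ± 0.11 SE, adjusted p = 5.56e-05), and Trp63 and Krt5, of stratified epithelium, were not tested. Of the 14 trophoblast genes tested 9 rose, 3 fell and 2 did not pass. The leading ones, Eomes, Hand1 and Cdx2, are shared with mesoderm. Gata3 read 154 and 182 at day 4, against 3.97 and 9.69 at day 0 (log2 FC 4.53 ± 0.41 SE, adjusted p = 2.77e-07). Plac1, a placental gene, read 152 and 239.7 at day 4, against 0 and 2.42 at day 0 (a ratio of 180.1, 95% counting interval 49.5 to 1492, adjusted p = 3.9e-07). Tead4, the trophectoderm factor, fell (log2 FC −0.65 ± 0.11 SE, adjusted p = 0.000169).

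Genes listed as fibroblast matrix, to look for feeder cells, rose in 14 of 19 cases, with 1 lower. Col1a1, type I collagen, read 1219 and 1541 at day 4, against 56.6 and 72.7 at day 0 (log2 FC 4.40 ± 0.22 SE, adjusted p = 6.65e-10). Pdgfrb read 699.7 and 885 at day 4, against 182 and 164 at day 0 (log2 FC 2.18 ± 0.17 SE, adjusted p = 8.06e-08). Dcn, the proteoglycan decorin, read 9.61 and 13.1 at day 4, against 0 and 0 at day 0. Postn, the matrix protein periostin, read 13.5 and 26.1 at day 4, against 0 and 0 at day 0. Col3a1, type III collagen, read 7.69 and 12.1 at day 4, against 0 and 2.42 at day 0. All 3 stayed under 30 on both days, though each was called higher. Thy1, a fibroblast surface marker that ES cells also express, had similar values on both days (236 and 264 at day 4, against 309 and 314 at day 0; log2 FC −0.32 ± 0.15 SE, adjusted p = 0.0753). The part of feeder cells in these changes was not tested.

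Hox and Cdx genes, which set position along the body axis, rose in 21 of the 28 members tested, fell in 3 and did not pass in 4, with a median of 2.51 (2.42 with members at 0 set to their bound). The other 14 of the 42 were not tested, and only 7 had a WT mean of at least 50. Hoxb3 read 138 and 228 at day 4, against 0.992 and 0 at day 0 (a ratio of 337, 95% counting interval 60.1 to 13332, adjusted p = 3.36e-08). Hoxb2 read 123 and 211 at day 4, against 2.98 and 1.21 at day 0 (log2 FC 5.77 ± 0.56 SE, adjusted p = 5.8e-07). Hoxd1 read 101 and 142 at day 4, against 3.97 and 8.48 at day 0 (log2 FC 4.14 ± 0.36 SE, adjusted p = 2.32e-07). Hoxd9 read 56.7 and 115 at day 4, against 0 and 0 at day 0 (at least 52.4-fold higher, adjusted p = 7.92e-08). Day 0 values of these 4 stayed under 10, and the second day 4 library was the higher one for each. Hoxc12 (a ratio of 0.0482, 95% counting interval 0.00116 to 0.305, adjusted p = 0.000118), Hoxc13 (log2 FC −0.96 ± 0.18 SE, adjusted p = 0.000337) and Cdx1 (−1.35 on the log2 scale) fell. The call for Cdx1 was lost without the first day 4 library (log2 −0.88) and without the first day 0 library (log2 −1.22).

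**Figure D3:**
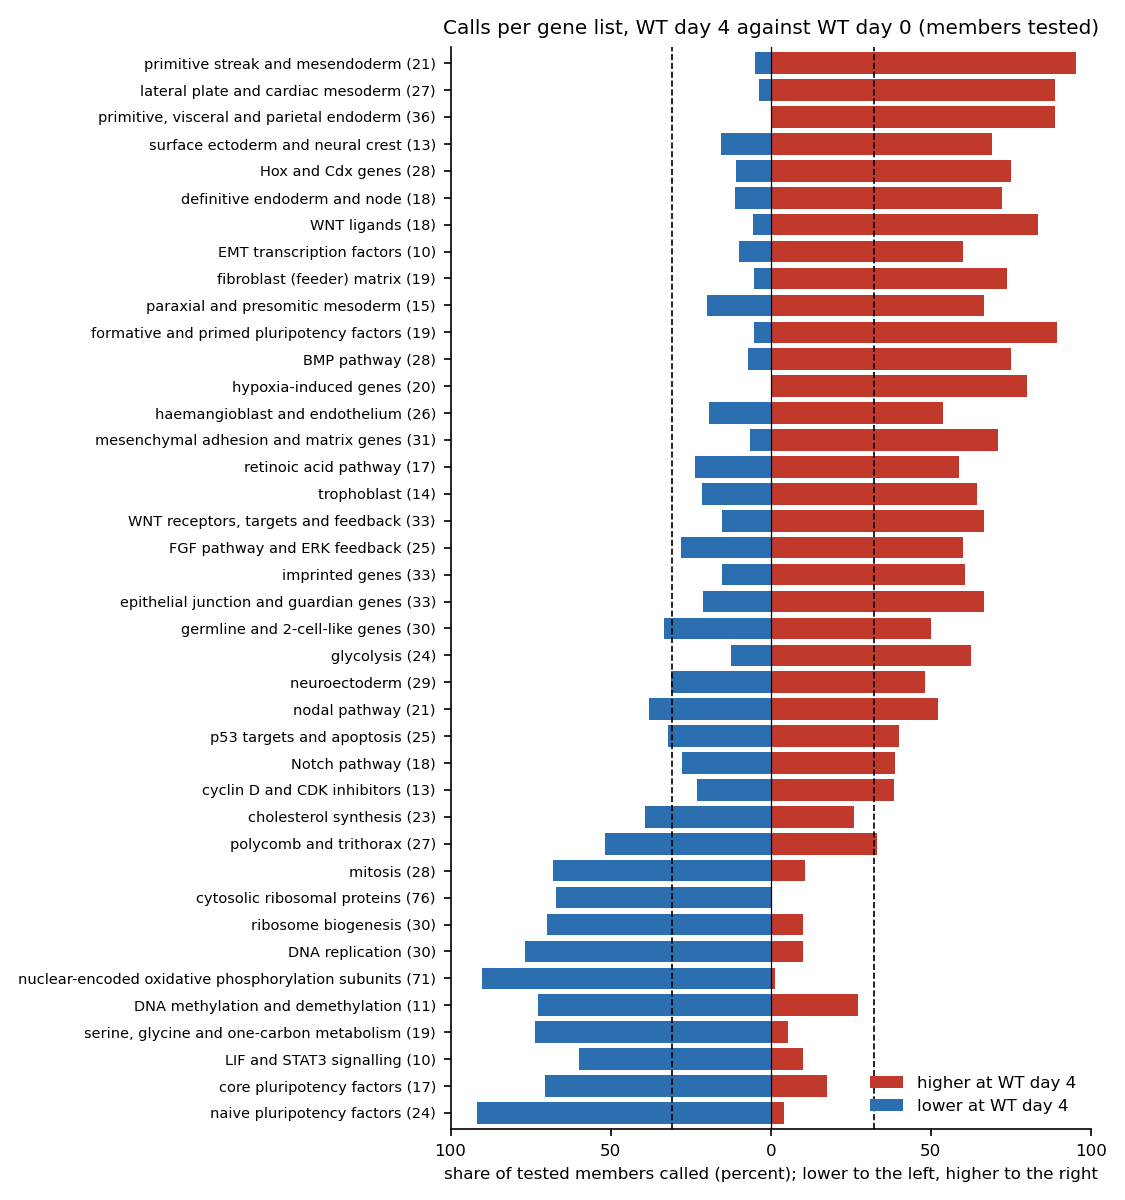
For each of the 40 gene lists, the share of tested members called higher (right of 0) and lower (left of 0) at WT day 4 against WT day 0, in percent, ordered by median log2 fold change. Dashed lines mark the shares over all genes tested, 32.3% higher and 30.8% lower; primitive streak stands at the top and naive pluripotency at the bottom.

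Signalling genes changed in both directions within most pathways. In the nodal pathway 11 of 21 genes tested rose, 8 fell and 2 did not pass, with a median of 0.29. Beside Nodal and Inhbb, the feedback inhibitor genes Lefty1 and Lefty2 fell, while the antagonist gene Cer1 rose. The activin subunit gene Inhba was near absent, with 2.88 and 3.73 at day 4, against 2.98 and 2.42 at day 0, and did not pass (log2 FC 0.22 ± 0.49 SE, adjusted p = 0.714). Lefty1 read 1528 and 1247 at day 4, against 8427 and 8416 at day 0 (log2 FC −2.61 ± 0.09 SE, adjusted p = 2e-11). Lefty2 read 2785 and 2498 at day 4, against 7408 and 7453 at day 0 (log2 FC −1.49 ± 0.08 SE, adjusted p = 8.08e-10). Tdgf1 (Cripto), the coreceptor, read 10493 and 11845 at day 4, against 26778 and 27309.8 at day 0 (log2 FC −1.28 ± 0.09 SE, adjusted p = 1.23e-08). Cfc1 (Cryptic), its paralog, rose and read 409 and 721 at day 4, against 15.9 and 13.3 at day 0 (log2 FC 5.13 ± 0.31 SE, adjusted p = 4.21e-09). Smad3, an effector of nodal and activin receptors, read 1708 and 1761 at day 4, against 637 and 610.5 at day 0 (log2 FC 1.47 ± 0.09 SE, adjusted p = 6.91e-09). Furin, the protease that matures nodal, rose (log2 FC 1.23 ± 0.08 SE, adjusted p = 1.07e-08). The type I receptor gene Acvr1b did not pass (log2 FC 0.15 ± 0.09 SE, adjusted p = 0.136).

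The BMP list rose in 21 of 28 genes, fell in 2 and did not pass in 5 (median 1.34). Its direct targets Id1, Id2 and Id3, inhibitors of bHLH factors that ES cells also use, were all higher. Id3 read 1920.2 and 1791 at day 4, against 183 and 165 at day 0 (log2 FC 3.41 ± 0.11 SE, adjusted p = 1.35e-11). Id1 read 1357 and 1338 at day 4, against 354 and 398 at day 0 (log2 FC 1.84 ± 0.13 SE, adjusted p = 1.72e-08). Id2 read 1010.1 and 992 at day 4, against 331 and 344 at day 0 (log2 FC 1.57 ± 0.09 SE, adjusted p = 1.99e-09). Replicates of each agreed closely and the days were well apart. The receptor gene Bmpr1a rose (log2 FC 1.17 ± 0.07 SE, adjusted p = 6.09e-09), and Smad7, an inhibitory SMAD, fell and read 901 and 1089 at day 4, against 1998 and 2046 at day 0 (log2 FC −1.03 ± 0.09 SE, adjusted p = 1.85e-07).

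WNT ligands rose in 15 of 18 cases, with 1 lower and 2 that did not pass (median 2.28). Wnt8a read 175 and 309.6 at day 4, against 8.93 and 12.1 at day 0 (log2 FC 4.36 ± 0.31 SE, adjusted p = 2.64e-08). Wnt5a, a ligand of the noncanonical branch, read 528 and 1019 at day 4, against 134 and 111 at day 0 (log2 FC 2.58 ± 0.25 SE, adjusted p = 6.94e-07). Wnt2 read 51.9 and 82.1 at day 4, against 0 and 0 at day 0 (at least 40.9-fold higher, adjusted p = 4.29e-06). Of 33 receptors, targets and feedback genes, 22 rose, 5 fell and 6 did not pass (median 0.78). Axin2, a target that feeds back on the pathway, read 1258 and 1445 at day 4, against 464 and 455 at day 0 (log2 FC 1.55 ± 0.10 SE, adjusted p = 1.19e-08). Apcdd1 (log2 FC 2.90 ± 0.19 SE, adjusted p = 8.87e-09) and Frzb, a secreted antagonist (507 and 584 at day 4, against 1.98 and 1.21 at day 0; a ratio of 334, 95% counting interval 114 to 1621, adjusted p = 1.22e-08), rose. The deacylase gene Notum, another feedback target, went down and read 113 and 190.2 at day 4, against 681 and 745 at day 0 (log2 FC −2.27 ± 0.20 SE, adjusted p = 2.04e-07). So did the receptor gene Fzd5 (log2 FC −1.88 ± 0.10 SE, adjusted p = 1.2e-09) and the antagonist gene Sfrp1 (log2 FC −1.37 ± 0.09 SE, adjusted p = 6.22e-09). Fzd7 rose (log2 FC 1.33 ± 0.07 SE, adjusted p = 9.42e-10).

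FGF ligands changed in both directions. Of 25 genes 15 rose, 7 fell and 3 did not pass. Fgf4, the autocrine ligand of ES cells, read 2141 and 2172 at day 4, against 7816 and 7845 at day 0 (log2 FC −1.86 ± 0.06 SE, adjusted p = 1.73e-11). It fell with Fgf17 and Fgf18 (log2 FC −2.30 ± 0.26 SE, adjusted p = 3.09e-06), while Fgf5 rose. The receptor gene Fgfr2 read 1917 and 1749 at day 4, against 439 and 375 at day 0 (log2 FC 2.17 ± 0.10 SE, adjusted p = 3.02e-10). ERK feedback genes differed from each other. Dusp4 rose and read 2324 and 2306 at day 4, against 318 and 277 at day 0 (log2 FC 2.96 ± 0.08 SE, adjusted p = 1.96e-12). Spry4 fell and read 889.9 and 1009.9 at day 4, against 2327 and 2261 at day 0 (log2 FC −1.27 ± 0.07 SE, adjusted p = 2.43e-09). Spry2 did not pass (log2 FC 0.10 ± 0.07 SE, adjusted p = 0.213).

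Notch genes gave 7 higher, 5 lower and 6 that did not pass among 18, with a median of 0.02. These counts are not far from the shares over all genes (32.3% higher, 30.8% lower). The target gene Hey1 rose and read 484 and 551 at day 4, against 113 and 119.9 at day 0 (log2 FC 2.14 ± 0.16 SE, adjusted p = 3.78e-08). Hey2 (log2 FC 2.82 ± 0.27 SE, adjusted p = 5.25e-07) and the receptor gene Notch2 (log2 FC 1.51 ± 0.11 SE, adjusted p = 3.05e-08) rose as well. Notch4, an endothelial receptor, fell and read 289 and 279 at day 4, against 1052 and 1014 at day 0 (log2 FC −1.86 ± 0.12 SE, adjusted p = 1.25e-08), and Notch1 did not pass (log2 FC 0.13 ± 0.12 SE, adjusted p = 0.373). In the retinoic acid list 10 of 17 rose and 4 fell. Beside Cyp26a1, the receptor gene Rxrg was higher (log2 FC 3.62 ± 0.29 SE, adjusted p = 1.04e-07). The receptor gene Rara was lower and read 804 and 810.4 at day 4, against 2541 and 2458 at day 0 (log2 FC −1.63 ± 0.08 SE, adjusted p = 5.2e-10).

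Genes that act in the passage from epithelium to mesenchyme rose, with no called change of the main epithelial cadherin. Snai1, the repressor of Cdh1 that acts in the streak, read 415 and 615 at day 4, against 36.7 and 37.5 at day 0 (log2 FC 3.73 ± 0.21 SE, adjusted p = 1.99e-09). Zeb2 read 568 and 650 at day 4, against 40.7 and 46.0 at day 0 (log2 FC 3.78 ± 0.21 SE, adjusted p = 1.65e-09), and 6 of the 10 EMT transcription factor genes rose, with 1 lower and 3 that did not pass. Cdh2 (N-cadherin), the cadherin of mesoderm and neural cells, read 1592 and 2669.9 at day 4, against 100.2 and 95.7 at day 0 (log2 FC 4.38 ± 0.18 SE, adjusted p = 9.42e-11). Cdh1 (E-cadherin) read 15178 and 15090.4 at day 4, against 14837 and 13806 at day 0 (log2 FC 0.08 ± 0.07 SE, adjusted p = 0.332), and the days lay next to each other without overlapping. Quantile normalization gave a log2 of 0.22 for Cdh1, past the threshold (adjusted p = 0.0148). Of 33 genes of epithelial junctions and their regulators 22 rose, 7 fell and 4 did not pass (median 0.63). Cldn6, a claudin of epiblast and endoderm, read 4756 and 3889.6 at day 4, against 1212 and 1269 at day 0 (log2 FC 1.79 ± 0.09 SE, adjusted p = 4.47e-10). The splicing regulator Esrp1 read 3372 and 3136 at day 4, against 1797 and 1768 at day 0 (log2 FC 0.87 ± 0.07 SE, adjusted p = 4.74e-08). The protease Prss8 read 821 and 646 at day 4, against 130 and 169.6 at day 0 (log2 FC 2.29 ± 0.15 SE, adjusted p = 9.64e-09). Jup, plakoglobin, fell (log2 FC −0.59 ± 0.07 SE, adjusted p = 3.86e-06).

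Mesenchymal adhesion and matrix genes rose in 22 of 31 cases, fell in 2 and did not pass in 7 (median 1.12). Has2, the hyaluronan synthase, read 1139.8 and 1568 at day 4, against 68.5 and 50.9 at day 0 (log2 FC 4.48 ± 0.18 SE, adjusted p = 8.61e-11). Vim, vimentin, which ES cells express, read 3193 and 4173 at day 4, against 3236 and 3314 at day 0 (log2 FC 0.16 ± 0.11 SE, adjusted p = 0.218). Fn1, fibronectin, read 37191 and 53112 at day 4, against 39091 and 32886 at day 0 (log2 FC 0.31 ± 0.14 SE, adjusted p = 0.0703). Neither passed, and for Fn1 the first day 4 library lay between the day 0 libraries. Without that library each was called higher, with a log2 of 0.35 for Vim and 0.57 for Fn1.

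Chromatin genes changed in both directions. Among 11 genes of DNA methylation and its removal 8 fell and 3 rose. Dnmt3b, a de novo methyltransferase of the postimplantation epiblast, read 17963 and 19561 at day 4, against 6279.7 and 5975 at day 0 (log2 FC 1.61 ± 0.09 SE, adjusted p = 1.3e-09). Of the dioxygenases that oxidize methylcytosine, Tet1 read 6277 and 7195 at day 4, against 20561 and 18813 at day 0 (log2 FC −1.55 ± 0.10 SE, adjusted p = 6.81e-09). Tet2 fell (log2 FC −1.44 ± 0.10 SE, adjusted p = 1.22e-08), and Tet3 rose, reading 901 and 884 at day 4, against 314 and 298 at day 0 (log2 FC 1.54 ± 0.10 SE, adjusted p = 1.05e-08). Zfp57, which protects imprints, read 1570.4 and 1974 at day 4, against 7840.4 and 7803 at day 0 (log2 FC −2.15 ± 0.12 SE, adjusted p = 2.28e-09), and Uhrf1, the partner of maintenance methylation, fell less (log2 FC −0.48 ± 0.07 SE, adjusted p = 2.28e-05). In the polycomb and trithorax list 9 of 27 rose, 14 fell and 4 did not pass. The CBX subunits of polycomb repressive complex 1 moved apart: Cbx7, the ES cell form, read 3681 and 3565 at day 4, against 7773 and 7719 at day 0 (log2 FC −1.10 ± 0.07 SE, adjusted p = 5.28e-09). Cbx2 read 1649 and 1861 at day 4, against 893 and 779 at day 0 (log2 FC 1.07 ± 0.09 SE, adjusted p = 1.09e-07). Cbx8 rose (log2 FC 2.18 ± 0.28 SE, adjusted p = 9.08e-06), Eed fell (log2 FC −0.79 ± 0.06 SE, adjusted p = 1.01e-07) and Suz12 did not pass (log2 FC 0.02 ± 0.07 SE, adjusted p = 0.768).

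Imprinted genes rose in 20 of 33 cases, fell in 5 and did not pass in 8 (median 0.64). Igf2, the fetal growth factor, read 16025 and 23968 at day 4, against 169.7 and 180.5 at day 0 (log2 FC 6.80 ± 0.17 SE, adjusted p = 1.69e-12). H19, the noncoding RNA next to it, read 3967 and 3139 at day 4, against 55.6 and 72.7 at day 0 (log2 FC 5.77 ± 0.20 SE, adjusted p = 1.46e-11), and the second day 4 library was the higher one for Igf2 but the lower one for H19. Peg10 read 34717 and 44246 at day 4, against 3759 and 3828 at day 0 (log2 FC 3.37 ± 0.09 SE, adjusted p = 2.47e-12). Peg3 read 6776 and 10767 at day 4, against 1206 and 895 at day 0 (log2 FC 3.04 ± 0.16 SE, adjusted p = 1.32e-09). The kit does not mark strand, so reads of Igf2 and of its antisense transcript cannot be told apart, and expression from each parental allele was not measured. Meg3 did not pass (log2 FC 0.14 ± 0.20 SE, adjusted p = 0.569).

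Germline and 2-cell-like genes gave 15 higher, 10 lower and 5 that did not pass among 30. Zscan4 genes mark a rare ES cell state that resembles the 2-cell embryo. Zscan4d read 1296 and 2086 at day 4, against 406 and 391 at day 0 (log2 FC 2.04 ± 0.17 SE, adjusted p = 1.47e-07). It rose with Zscan4e (log2 FC 1.61 ± 0.19 SE, adjusted p = 4.42e-06), Zfp352 (log2 FC 2.49 ± 0.29 SE, adjusted p = 4.46e-06) and Tdpoz4 (log2 FC 3.34 ± 0.38 SE, adjusted p = 3.01e-06). Members of the Zscan4 family are near-identical, so the split of reads between them is uncertain. Prdm14, of naive and germ cells, fell (356 and 458 at day 4, against 918 and 948 at day 0; log2 FC −1.21 ± 0.15 SE, adjusted p = 8.4e-06), as did the meiotic gene Hormad1 (log2 FC −1.67 ± 0.10 SE, adjusted p = 2.71e-09).

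Cell cycle genes fell by small amounts. Of 30 DNA replication genes 23 fell, 3 rose and 4 did not pass, with a median of −0.42, and of 28 mitotic genes 19 fell, 3 rose and 6 did not pass, with a median of −0.26. Mcm10, a replication initiation factor, read 3128 and 3454 at day 4, against 5330.1 and 5248 at day 0 (log2 FC −0.69 ± 0.07 SE, adjusted p = 1.87e-06). E2f1, the factor that switches on S phase genes, read 1259 and 1397 at day 4, against 2382 and 2333 at day 0 (log2 FC −0.83 ± 0.08 SE, adjusted p = 3.69e-07). Ccne2 (cyclin E2) rose against that direction (236 and 275 at day 4, against 100.2 and 82.4 at day 0; log2 FC 1.48 ± 0.16 SE, adjusted p = 1.87e-06). Mki67, the proliferation antigen, read 9617 and 10194 at day 4, against 9919 and 9643 at day 0, and did not pass (log2 FC 0.02 ± 0.08 SE, adjusted p = 0.866). Ccnd2 (cyclin D2) rose, reading 1893 and 1989 at day 4, against 481 and 419 at day 0 (log2 FC 2.11 ± 0.10 SE, adjusted p = 4.97e-10). The other D cyclins, Ccnd1 (log2 FC −0.03 ± 0.08 SE, adjusted p = 0.768) and Ccnd3 (log2 FC −0.04 ± 0.09 SE, adjusted p = 0.726) did not pass. Cdkn1c, an imprinted CDK inhibitor, rose (log2 FC 0.67 ± 0.13 SE, adjusted p = 0.000325). Among 25 p53 targets and apoptosis genes 10 rose, 8 fell and 7 did not pass, not far from the shares over all genes (32.3% higher, 30.8% lower). The BH3-only genes Pmaip1 (log2 FC 0.87 ± 0.08 SE, adjusted p = 3.08e-07) and Bcl2l11 (log2 FC 0.98 ± 0.09 SE, adjusted p = 5.62e-07) were higher, and Bbc3 (log2 FC −0.78 ± 0.12 SE, adjusted p = 4.55e-05) was lower. Trp53 itself fell and read 6729 and 6937 at day 4, against 9878 and 10171 at day 0 (log2 FC −0.55 ± 0.10 SE, adjusted p = 0.000198).

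Energy metabolism genes moved by pathway. Of 71 nuclear-encoded subunits of oxidative phosphorylation tested 64 fell, 1 rose and 6 did not pass, with a median of −0.47. Cox6a1, a cytochrome oxidase subunit, read 2088 and 1802 at day 4, against 3668 and 3853 at day 0 (log2 FC −0.95 ± 0.08 SE, adjusted p = 1.2e-07). Sdhb, of succinate dehydrogenase, read 2098 and 2044 at day 4, against 3245 and 3327 at day 0 (log2 FC −0.67 ± 0.07 SE, adjusted p = 6.83e-07). Of 24 glycolysis genes 15 rose, 3 fell and 6 did not pass (median 0.43). Slc2a1, the glucose transporter GLUT1, read 47352 and 40835 at day 4, against 15873 and 15577 at day 0 (log2 FC 1.48 ± 0.12 SE, adjusted p = 6.84e-08). Slc16a3, a lactate exporter, read 10824 and 9861 at day 4, against 2722 and 2945 at day 0 (log2 FC 1.87 ± 0.08 SE, adjusted p = 1.41e-10). The enzyme genes Gapdh (log2 FC 0.03 ± 0.09 SE, adjusted p = 0.781), Aldoa (log2 FC 0.09 ± 0.11 SE, adjusted p = 0.485) and Gpi1 (log2 FC 0.07 ± 0.10 SE, adjusted p = 0.566) did not pass. Pfkp fell (log2 FC −1.33 ± 0.09 SE, adjusted p = 1.58e-08).

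Of 20 genes that hypoxia induces 16 rose, none fell and 4 did not pass (median 1.23). Adm, the peptide hormone adrenomedullin, read 464 and 341 at day 4, against 33.7 and 42.4 at day 0 (log2 FC 3.36 ± 0.21 SE, adjusted p = 7.98e-09). Ddit4 (REDD1) read 12348 and 10199 at day 4, against 2935 and 3046 at day 0 (log2 FC 1.91 ± 0.11 SE, adjusted p = 2.11e-09). The prolyl hydroxylase Egln3 read 3828 and 3413 at day 4, against 1205 and 1102 at day 0 (log2 FC 1.65 ± 0.10 SE, adjusted p = 5.79e-09). In all 3 the first day 4 library was the higher one. Vegfa, the growth factor, read 3069.6 and 2629.8 at day 4, against 2610.5 and 2659 at day 0, and did not pass (log2 FC 0.11 ± 0.08 SE, adjusted p = 0.263). Oxygen was not measured.

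Among 19 serine, glycine and one-carbon genes 14 were lower, 1 was higher and 4 did not pass (median −0.53). Tdh, threonine dehydrogenase, on which mouse ES cells depend, read 4136 and 4375 at day 4, against 14431 and 14575 at day 0 (log2 FC −1.77 ± 0.08 SE, adjusted p = 3.05e-10). Psat1, of serine synthesis, read 4721 and 4871 at day 4, against 16908 and 17059 at day 0 (log2 FC −1.82 ± 0.09 SE, adjusted p = 6.88e-10). Cholesterol synthesis genes gave 6 higher, 9 lower and 8 that did not pass among 23, not far from the shares over all genes (32.3% higher, 30.8% lower). Insig1 fell (log2 FC −0.82 ± 0.10 SE, adjusted p = 8.49e-06).

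Cytosolic ribosomal protein genes gave 51 of 76 lower, none higher and 25 that did not pass, all by small amounts (median −0.26). Rplp1 read 23246 and 19652 at day 4, against 29691 and 31820.5 at day 0 (log2 FC −0.52 ± 0.08 SE, adjusted p = 7.43e-05). With quantile normalization 17 of the 76 were called lower. Without the second day 4 library 18 were, and without the second day 0 library 21. Processed copies of these genes share their reads, so the level of a single member is uncertain. Among 30 ribosome biogenesis genes 21 were lower and 3 higher. Myc, the factor that drives many of them, was among those that rose (1084 and 1355 at day 4, against 395 and 428 at day 0; log2 FC 1.56 ± 0.12 SE, adjusted p = 6.99e-08). Tcof1 (log2 FC −0.69 ± 0.06 SE, adjusted p = 2.95e-07) and Ubtf (log2 FC −0.77 ± 0.07 SE, adjusted p = 4.15e-07), which act with RNA polymerase I, fell.

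Reads on microRNA hairpins were few in these libraries of longer RNA, and 36 hairpins had enough to be tested. Of these 7 were higher and 5 lower, smaller shares than over all genes (32.3% higher, 30.8% lower). The values are read counts on the hairpin or its surroundings, not levels of the mature microRNA. The mature sequences of 3 that rose are shown because their families are known in ES cells. They were chosen after their values were seen. The sequences are from RefSeq, 5′ to 3′, and capitals mark the seed, bases 2 to 8.
miR-302b-3p: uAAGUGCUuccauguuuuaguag
miR-363-3p: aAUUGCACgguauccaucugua
miR-92a-3p: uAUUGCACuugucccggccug
miR-363-3p and miR-92a-3p have the same seed, and their hairpins lie in the same X-linked cluster. Mir302b, the hairpin of miR-302b, from the cluster that marks the primed state, read 25.9 and 37.3 at day 4, against 0 and 0 at day 0 (at least 19.3-fold higher, adjusted p = 1.93e-05). Mir363 read 48.1 and 42.9 at day 4, against 11.9 and 14.5 at day 0 (log2 FC 1.71 ± 0.25 SE, adjusted p = 3.73e-05). Mir92-2 read 9.61 and 21.4 at day 4, against 0.992 and 6.06 at day 0 (log2 FC 2.04 ± 0.59 SE, adjusted p = 0.00781). The call for Mir92-2 was lost without the second day 4 library (log2 1.50) and without the first day 0 library (log2 1.13).

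The day 4 replicates differed from each other in a direction that varied by gene list, some germ layer lists among them. Over the members of each list with a WT mean of at least 50, the second day 4 library was higher than the first in 18 of 18 primitive streak genes, with a median log2 ratio of 0.46. The counts were 19 of 22 for lateral mesoderm (median 0.55) and 6 of 7 for Hox and Cdx genes (median 0.71). In the other direction, 7 of 32 genes of primitive, visceral and parietal endoderm (median −0.16), 3 of 15 of neuroectoderm (median −0.29), 1 of 20 hypoxia genes (median −0.22) and 0 of 73 ribosomal protein genes (median −0.18) were higher in the second library. Definitive endoderm (10 of 16) and surface ectoderm (6 of 11) split little, while epithelial junction genes (4 of 32) and DNA replication genes (25 of 30) split strongly. The same medians between the day 0 libraries were 0.01 for the streak, 0.20 for lateral mesoderm, −0.25 for Hox and Cdx genes and 0.10 for ribosomal proteins. At day 0 the second library was the higher one for 71 of 73 ribosomal protein genes and 64 of 71 oxidative phosphorylation genes. With 2 libraries there is no test of this difference, and it was counted in the spread of every gene above.

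**Figure D4:**
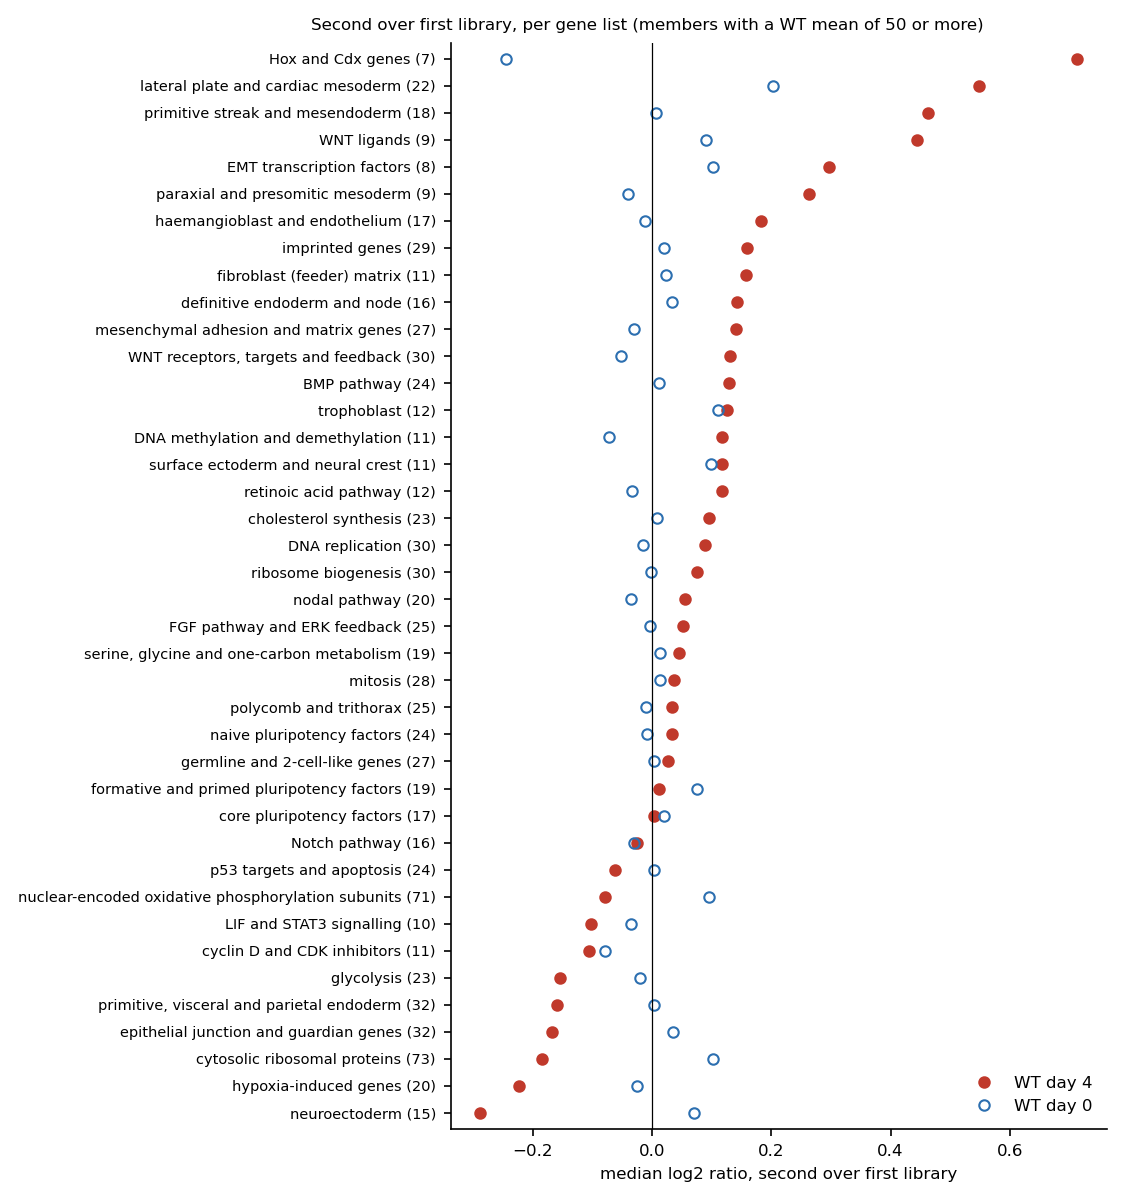
Median log2 ratio of the second over the first library, per gene list, at WT day 4 (filled) and WT day 0 (open), over members with a WT mean of at least 50. Hox, lateral mesoderm and streak lists lie to the right at day 4 and neuroectoderm, hypoxia and ribosomal lists to the left.

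The same change was measured in the libraries labelled KO. Rreb1, which encodes a zinc finger transcription factor of the RAS pathway, read 1920.5 and 1512 at day 4, against 2642 and 2830 at day 0 in the libraries labelled KO, and 1482 and 1586 at day 4, against 1085 and 1019 at day 0 in WT. Its RNA was therefore not lower under the KO label, and rose in WT (log2 FC 0.54 ± 0.10 SE, adjusted p = 0.000222). The sources used here do not give the part of the gene that was changed, so a count over the whole gene does not check the label. The difference in the day 4 change, KO minus WT, was tested in the same fit. It passed for 8478 of 15227 genes (55.7%), with 4354 lower under the KO label (28.6%) and 4124 higher (27.1%). The libraries labelled KO had 9134 genes of their own (60%) that changed by day 4.

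Many of the germ layer genes above rose less under the KO label, did not rise or fell. The difference was negative and called for 20 of 21 streak genes, 32 of 36 of primitive, visceral and parietal endoderm, 21 of 27 of lateral mesoderm and 26 of 28 Hox and Cdx genes. Of the other germ layer lists, definitive endoderm had 11 lower and 4 higher of 18, paraxial mesoderm 11 and 3 of 15, and surface ectoderm 9 and 1 of 13. Haemangioblast and endothelial genes had 14 lower and 4 higher of 26, and neuroectoderm 15 and 10 of 29. By day 4 under the KO label itself, 60% of all genes changed, with no split by direction counted. Of the streak genes 2 rose and 3 fell. The counts were 9 and 18 for primitive, visceral and parietal endoderm, 3 and 12 for lateral mesoderm, and 2 and 18 for Hox and Cdx genes. They were 7 and 7 for definitive endoderm, 1 and 5 for paraxial mesoderm and 4 and 6 for surface ectoderm. Haemangioblast and endothelial genes gave 4 and 9, and neuroectoderm 8 and 12. T read 19.2 and 17.7 at day 4, against 12.7 and 11.5 at day 0 under the KO label, and 907 and 1646 at day 4, against 6.95 and 8.48 at day 0 in WT (difference −6.56 ± 0.41 SE, adjusted p = 1.7e-08). Kdr read 3.395 and 3.94 at day 4, against 138 and 133 at day 0 under the KO label, and 1898 and 3619 at day 4, against 30.8 and 27.9 at day 0 in WT (difference −11.31 ± 0.36 SE, adjusted p = 3.89e-11). Eomes rose under both labels, with 702 and 711 at day 4, against 137 and 127 at day 0 under the KO label, and 1945 and 3225 at day 4, against 87.3 and 114 at day 0 in WT (difference −2.23 ± 0.26 SE, adjusted p = 7.09e-06). The differences for Mixl1 (−7.85 ± 0.63 SE, adjusted p = 1.98e-07), Gsc (−2.86 ± 0.73 SE, adjusted p = 0.00438), Sox17 (−4.67 ± 0.55 SE, adjusted p = 7.28e-06), Snai1 (−4.25 ± 0.29 SE, adjusted p = 4.76e-08) and Cdh2 (−5.34 ± 0.26 SE, adjusted p = 1.25e-09) were negative too. Sox1, whose change in WT did not pass, read 12.4 and 12.8 at day 4, against 204 and 203 at day 0 under the KO label (difference −3.90 ± 0.43 SE, adjusted p = 4.49e-06).

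For pluripotency genes the difference ran in either direction, more often positive in the naive and core lists. Naive factors had 6 lower and 13 higher of 24, and core factors 2 and 11 of 17. Formative and primed factors had 7 and 9 of 19, and LIF pathway genes 3 and 2 of 10. Pou5f1 read 23459 and 26859 at day 4, against 20829.5 and 21349.5 at day 0 under the KO label, and 10361 and 10924 at day 4, against 27993 and 28711 at day 0 in WT (difference 1.67 ± 0.11 SE, adjusted p = 2.47e-08). Esrrb fell less under the KO label (difference 1.14 ± 0.09 SE, adjusted p = 2.29e-07), while Nanog (−0.51 ± 0.09 SE, adjusted p = 0.000357) and Klf4 (−1.13 ± 0.12 SE, adjusted p = 3.34e-06) fell more. Cdh1 gave no called difference (−0.07 ± 0.10 SE, adjusted p = 0.581; 95% interval −0.28 to 0.14). The day 0 levels also differed between the labels, in both directions, and such genes were not counted. Kdr read 138 and 133 at day 0 under the KO label, against 30.8 and 27.9 in WT. Aldoa read 18756 and 17642 at day 0 under the KO label, against 72691 and 76157 in WT. On the second principal component (24.67% of the variance over all genes tested), day 0 libraries lay at 31.1 and 32.5 under the KO label, against −72.5 and −74.4 in WT. A difference in change therefore holds a part from day 0.

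**Figure D5:**
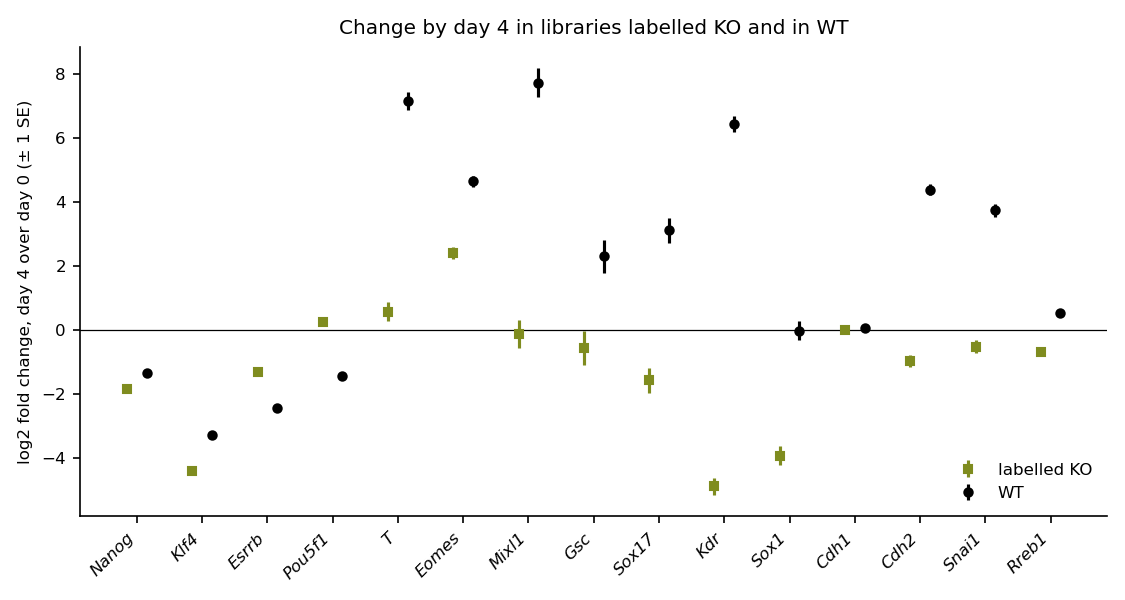
Log2 fold change of day 4 over day 0 for 15 genes, in the libraries labelled KO (left point of each pair) and in WT (right point), with bars of ± 1 SE from the shared fit. T, Mixl1, Sox17, Kdr, Cdh2 and Snai1 stand above 3 in WT and below 1 under the KO label.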

How the data were processed

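Libraries were single-end and, per the labels' protocols, came from an Illumina TruSeq kit that does not mark strand. The authors deposited a signal, a normalized count per gene and library; the mm10 build and the tools DESeq2 3.4, HTSeq 0.6.1p1, Bowtie2, HOMER and FastQC 0.11.5 are named in the submitters' processing notes, with no role for any of them. Dividing each column by its step gave whole reads for 100% of values (tolerance 0.001), which gave the depths and the floor of 3 counts over a group used for genes with no read. Of a gene with 1 to 3 counts in a group the ratio is given with a 95% counting interval. These intervals and floors cover counting error only. The table held no mitochondrial gene, and 27 genes carried dates as names; they were kept in the fit and are not named.

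limma 3.58.1 (R 4.3.3, trend option) was fitted to log2(value + 1) for 15227 genes over 8 libraries in 4 groups of 2, with two-sided p-values adjusted by the Benjamini-Hochberg method over all genes tested. Fold changes on this scale understate low genes. Alternatives used edgeR 4.0.16 and DESeq2 1.42.0 on the recovered reads, other pseudocounts, filters and scalings, and left out each library in turn.

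The 40 gene lists and the genes named were chosen with earlier results of these data known. The text names Rreb1, 14 fixed markers and most of the other cell type markers. It names the 12 largest changes each way among called genes with a WT mean of at least 50. The genes with the highest value among those with no read at 1 of the days are named too. From each list it names some of the 5 members per direction with the smallest adjusted p. Some of the 3 with the highest mean that did not pass are named as well, and others are marked. A list is described by its counts and median, with no test of its own. Its counts are to be read beside the shares over all genes, 32.3% higher and 30.8% lower. Promoter and microRNA sequences are from the RefSeq tables of GRCm38.p6. A few items withheld for evaluation are not reported here.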

Additional observations from a re-analysis of the deposited data

Results flagged for a closer look

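The change by day 4 differed between the libraries labelled KO and WT, by the interaction term of the limma fit, for 14 of the 15 genes for which it was fixed to be given. The differences, KO minus WT on the log2 scale, were −11.31 for Kdr, −7.85 for Mixl1, −6.56 for T, −5.34 for Cdh2, −4.67 for Sox17, −4.25 for Snai1, −3.90 for Sox1, −2.86 for Gsc and −2.23 for Eomes. They were −1.23 for Rreb1, −1.13 for Klf4 and −0.51 for Nanog, and positive for Pou5f1 (1.67) and Esrrb (1.14). All 14 kept their direction and their call under the alternatives run, except that a mean of at least 50 left Gsc untested. Over all genes 55.7% passed the same test, so a call alone does not set these genes apart. No group had enough libraries to look for a sample far from the others.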

How the results depend on the processing

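The number of genes called in WT ranged from 7842 to 9990 when 1 of the 8 libraries was left out, against 9602, and the number of 2-fold changes from 3177 to 3450, against 3443. With a mean of at least 50 required over the 8 libraries the 2-fold count was 2083, and 12280 genes were then tested. DESeq2 called 8619 genes and edgeR 9656. Scaling moved the median of all genes by a log2 of 0.067 at equal totals and −0.058 with quantile normalization, and the share of calls that were higher to 57.4% and 46.3%, against 51.2%. The interaction count was 8478, from 7108 to 8430 with a library left out.

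The labels do not say that a replicate number marks a shared culture, and the deviations of same-numbered WT libraries had a correlation of −0.076; over all 6 pairs of groups it ran from −0.076 to 0.139, the highest between the day 4 libraries labelled KO and WT. With the replicate block 9683 genes were called, 3436 of them 2-fold, and the interaction called 8623.

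Of 238 genes named, 214 stayed on the same side of the threshold throughout, those called in the same direction. Sox1 changed direction, at 0.64 without the second day 4 library and −0.66 without the first. Calls were lost for Krt7 without the first day 4 library (0.27) or either day 0 library (0.58), for Nes without the second day 4 library (0.31), and by DESeq2 for Apoa4, Cer1, Wnt2 and Mir302b, which had no read at day 0. Tbx3 was called lower without the second day 4 library (−0.54). Myl4 was called lower by 8 alternatives, among them edgeR (−0.61), quantile normalization (−0.96) and leaving out the first day 4 library (−0.81); Tnnt2 (−1.42), Itga2b (−0.71) and Thy1 (−0.44) were called lower, and Aldoa (0.29) and Apoe (0.23) higher, with quantile normalization. At equal totals Acvr1b (0.22), Foxa3 (0.53), Jak1 (0.21), Spry2 (0.16) and Fn1 (0.38) were called higher. The cause was not tested.

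Counts called per list moved by over 1.5 times when members were lost to the mean of at least 50: paraxial mesoderm 7 of 8, haemangioblast 10 of 15, neuroectoderm 12 of 14 (8 of them lower), surface ectoderm 7 of 9, Hox and Cdx 3 of 4, WNT ligands 7 of 7 and EMT factors 4 of 7. Median log2 fold changes then were 0.55 for paraxial mesoderm (1.57 in the main fit), 0.22 for haemangioblast (1.23), 0.98 for Hox and Cdx (2.51) and 0.14 for EMT factors (2.11). The neuroectoderm median was −1.03 (0.38), while surface ectoderm stayed at 2.64 and WNT ligands gave 2.39 (2.28). Leaving out a library moved mitosis to 14 of 28 (second of day 0) and cyclin D genes to 4 (first of day 4) and 3 (first of day 0) of 13. Without the first day 4 library the p53 list gave 6 higher and 7 lower, and the cholesterol list 7 higher and 6 lower, the reverse order. Ribosomal protein calls were 31 without the trend option. Where a list had no call in a direction by limma, the counts at an unadjusted p under 0.05, by edgeR and by DESeq2 were 0 as well.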

Other observations

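The X chromosome had the highest share of genes that rose: of 525 tested, 43.0% rose and 21.1% fell at WT day 4 against day 0, with a median log2 fold change of 0.18. Over the other chromosomes the share that rose ran from 23.6% to 38.6% and the median from −0.09 to 0.13. The genes of a chromosome are not independent, and no test was made.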
